A study of Mus musculus with 12 samples.

Results

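The Trim genes were followed in mouse liver as the relatives of Pml, the gene removed in the knockout animals of this series. They were taken by symbol, as every gene named Trim with a number, Pml itself left out, for which at least 1 probe set was annotated to that gene alone. This gave 51 of the 17097 genes measured. Of these 51 genes, 28 were bright enough to be tested among 10258 genes in all, and 23 lay among the dimmest 40% of genes and were described only.

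Livers came from male mice of 2 genotypes, Wild Type and PML Knockout, on 2 diets. The low-fat diet had 10% of calories from fat and the high-fat diet 60%, and both were eaten for 20 weeks and followed by a fast of 8 h. Each of the 4 groups held 8 mice, from which 3 liver extracts were put on 1 array each, 12 arrays in all. The labels give neither the age nor the strain of the mice, nor whether each extract came from a mouse of its own, so p-values measure the spread between these extracts. RNA came from whole liver, and no cell type was isolated.

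Trim proteins share a tripartite motif, made of a RING finger that usually carries ubiquitin ligase activity, B-box zinc fingers and a coiled coil through which they pair. What follows the coiled coil differs between members and sorts them into classes. A PRY-SPRY domain often binds the protein to be marked, and a PHD finger with a bromodomain can, in some members, read histone tails. PML is itself a Trim protein, formerly Trim19, and like several relatives it is induced by interferon. In liver, Trim24 is known as a partner of retinoic acid receptors in hepatocytes, and Trim28 as a silencer of retroelements and other chromatin.

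All values are log2 signals, and a difference of 1 is a doubling. The threshold was an adjusted p of 0.05 (limma, Benjamini-Hochberg over the 10258 genes). The brighter Pml probe set lay between 4.92 and 5.40 in wild-type arrays and between 3.04 and 3.82 in knockout arrays, so every array lay on the side that its genotype label gives. Its difference was -1.51 on the low-fat diet (SE 0.188, limma adjusted p = 0.0303) and -1.80 on the high-fat diet (SE 0.188, limma adjusted p = 0.00433). The labels do not place that probe set inside or outside the deleted part of Pml. Hepatocyte markers were bright on every array, with a mean level over 8 genes of 12.6 to 12.9. Macrophage markers had a mean level of 5.98 to 6.83 on 10 arrays, but 4.87 on knockout low-fat array 2 and 5.46 on knockout high-fat array 3. Liver endothelial markers were at 6.03 on knockout low-fat array 2 and at 5.93 and 5.91 on knockout high-fat arrays 2 and 3. On the other 9 arrays they lay between 6.46 and 6.95. In whole liver, fewer cells of a type and less RNA per cell cannot be told apart.

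One block of the family lies on chromosome 7, where 10 Trim genes in the RefSeq annotation (GRCm38.p6) follow one another with 1 other protein-coding gene among them, between Trim12c and Trim30b. They are Trim6, Trim34a, Trim5, Trim12a, Trim34b, Trim12c, Trim30b, Trim30c, Trim30a and Trim30d, and 7 of them had a probe set of their own. Mouse Trim5, Trim12a and Trim12c are related to the primate TRIM5 that blocks retroviral capsids, and Trim30a restrains inflammatory signalling. The core of the interferon-stimulated response element, GAAANNGAAA on either strand, was looked for in the 250 bases before each RefSeq start site. It was present in 974 of 32817 such windows (2.97%) and in 4 of 55 windows of Trim genes (7.27%). Those 4 windows belonged to Trim5, Trim12c, Trim30a and Trim30d, out of 41 members found in the promoter table. Of the 15 interferon-inducible Trim genes listed below, 9 members were in the table, and these 4 were among them. The element bound by STAT dimers, TTCNNNGAA on either strand, was in 2302 windows (7.01%) and in 5 Trim windows (9.09%), of Trim46, Trim45, Trim15 and Trim31. No Trim gene held both motifs. A match describes the letters and is not evidence of binding.

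The promoter of Trim12c is shown in full because Trim12c was the Trim gene that passed a test below. Short stretches of the other 3 are shown so that the motif and its flanks can be compared. All 4 are on the minus strand of GRCm38.p6 and written 5′ to 3′, with the matched bases in capitals, which read as the reverse complement of the motif.
Trim12c, chr7:104353350-104353599: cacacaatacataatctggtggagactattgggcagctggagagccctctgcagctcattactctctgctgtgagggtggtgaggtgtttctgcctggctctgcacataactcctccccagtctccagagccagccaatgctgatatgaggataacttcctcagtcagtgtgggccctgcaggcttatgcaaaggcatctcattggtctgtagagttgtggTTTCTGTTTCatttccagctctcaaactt
Trim5, chr7:104288121-104288180: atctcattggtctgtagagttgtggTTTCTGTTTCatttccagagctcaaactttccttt
Trim30a, chr7:104465195-104465254: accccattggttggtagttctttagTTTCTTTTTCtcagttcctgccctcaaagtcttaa
Trim30d, chr7:104507856-104507915: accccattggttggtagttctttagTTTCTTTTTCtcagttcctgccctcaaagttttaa
The match lay 29 bases before the start site in Trim12c, 49 in Trim5, 36 in Trim30a and 41 in Trim30d. Over 54 bases aligned on the match, Trim12c and Trim5 shared 52 (96.3%) and Trim30a and Trim30d shared all 54. Trim12c and Trim30a shared 28 (51.9%). Over these bases the 4 stretches thus form 2 pairs. Whether probe sets of these neighbours detect one another's transcripts was not tested.

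Between the diets, 1 Trim gene passed the test, the interferon-inducible Trim12c in knockout livers, where it was 1.55-fold higher with high-fat feeding. Trim14 and Trim21, also inducible by interferon, had differences of the same sign that did not pass. None of the 3 passed in wild-type livers. Over all genes, 3.03% passed in this comparison of diets in knockout livers, against 1 of the 28 tested Trim genes. The Trim share is thus close to that of all genes.

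Trim12c is a PRY-SPRY member of the chromosome 7 block. Its signal was 7.08, 7.01 and 6.77 in wild-type low-fat and 6.99, 7.05 and 6.98 in wild-type high-fat livers. The knockout arrays had 6.51, 6.56 and 7.09 with low-fat and 7.29, 7.46 and 7.30 with high-fat feeding. The 3 knockout high-fat arrays were thus the highest of all 12, and the widest spread was among the knockout low-fat arrays, where array 3 stood well above the other two. Group means were 6.95 ± 0.161 (SD, n = 3), 7.01 ± 0.0367, 6.72 ± 0.322 and 7.35 ± 0.0964 in the same order. Between the diets Trim12c rose by 0.63 in knockout livers (SE 0.144, limma adjusted p = 0.0375). The wild-type difference was 0.06 (SE 0.144, limma adjusted p = 0.957). The difference between these diet effects was 0.57 (SE 0.204, unadjusted p = 0.0152) and did not pass (limma adjusted p = 0.827), so the diet response of Trim12c was not shown to differ between the genotypes. Without knockout low-fat array 2 and knockout high-fat array 3, the arrays lowest in macrophage markers, the diet difference in knockout livers was 0.58 and no longer passed (limma adjusted p = 0.181). In a fit of the knockout groups alone the limma adjusted p was 0.128. The call also ended when any of 8 single arrays was left out, namely each wild-type high-fat array, knockout low-fat array 1 or 2, or any knockout high-fat array, with adjusted p up to 0.149. Trim12c has a second, dim probe set with a mean of 3.56, which had a diet difference of -0.06 in knockout livers, and the mean of both probe sets had 0.28 (limma adjusted p = 0.245).

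**Figure D1:**
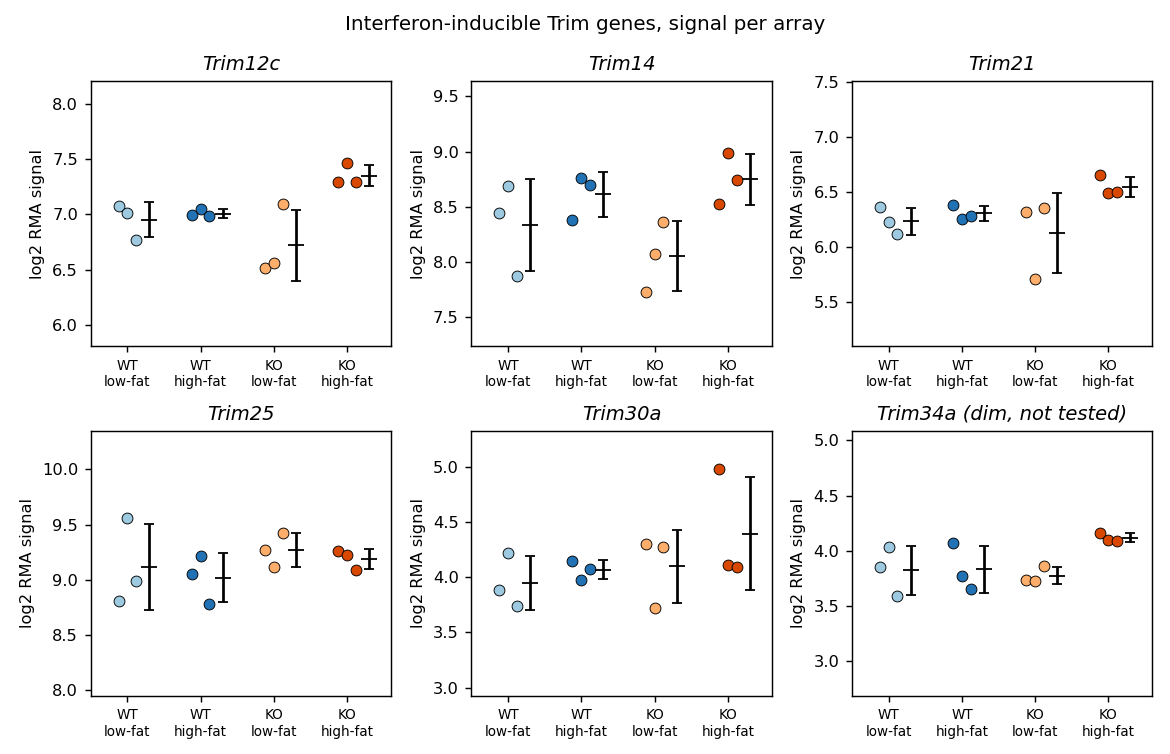
Log2 RMA signal (vertical axis) of 6 interferon-inducible Trim genes on each array, by genotype and diet (horizontal axis); points are the 3 arrays of a group, and the bar beside them is the mean ± SD. The knockout high-fat points of Trim12c (7.29 to 7.46) lie above all other points of that gene, whereas those of Trim25 (9.09 to 9.26) lie within the range of the other groups.

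Trim14 lacks a RING finger and sits at mitochondria, where it helps the RNA sensing adaptor MAVS signal. Its values were 8.45, 8.69 and 7.87 in wild-type low-fat and 8.38, 8.76 and 8.70 in wild-type high-fat livers. In knockout livers they were 7.72, 8.07 and 8.36 with low-fat and 8.52, 8.98 and 8.75 with high-fat feeding, without overlap between the diets. The diet difference of Trim14 was 0.70 in knockout livers (SE 0.209, limma adjusted p = 0.0941) and 0.28 in wild-type livers (SE 0.209, limma adjusted p = 0.784). Without wild-type low-fat array 3, the wild-type value was 0.05. Trim14 thus had the largest diet difference of the tested Trim genes in knockout livers but a wider spread than Trim12c. With the genotypes averaged, the diet difference of Trim14 was 0.49 (SE 0.148, limma adjusted p = 0.0817).

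Trim21 is a cytosolic receptor for antibodies that destroys what they have bound. It had 6.36, 6.23 and 6.12 in wild-type low-fat and 6.38, 6.26 and 6.28 in wild-type high-fat livers. The knockout values were 6.32, 5.72 and 6.36 with low-fat and 6.65, 6.49 and 6.50 with high-fat feeding. The 3 knockout high-fat values were the highest of the 12, and the lowest, 5.72, was on knockout low-fat array 2, which is also the array lowest in macrophage markers. Its diet difference in knockout livers was 0.42 (SE 0.154, limma adjusted p = 0.164), and 0.23 (limma adjusted p = 0.458) without the pair of arrays low in macrophage markers. A second probe set of Trim21, with a mean of 5.37, had a diet difference of 0.44 in knockout and -0.19 in wild-type livers.

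Trim25, the ligase that activates the RNA sensor RIG-I, had small diet differences of the opposite sign. Its 12 values ran from 8.79 to 9.56, both of them in wild-type livers, and all groups overlapped. The diet differences of Trim25 were -0.08 in knockout and -0.10 in wild-type livers. Trim30a had 3.88, 4.22 and 3.74 in wild-type low-fat and 4.15, 3.98 and 4.08 in wild-type high-fat livers. Its knockout values were 4.30, 3.72 and 4.27 with low-fat and 4.98, 4.11 and 4.09 with high-fat feeding, so that 1 array, knockout high-fat array 1, set the higher mean. The diet difference of Trim30a in knockout livers was 0.30 (SE 0.231, limma adjusted p = 0.555), and 0.00 without that array.

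Diet differences varied within the chromosome 7 block. In knockout livers the diet difference was 0.63 for Trim12c, 0.34 for Trim34a and 0.30 for Trim30a. It was 0.05 for Trim12a, -0.02 for Trim6, -0.06 for Trim30d and -0.14 for Trim5. The last 4 and Trim34a are dim genes, in which RMA compresses differences, so their small values are not evidence of a steady transcript. Trim34a had 3.73, 3.73 and 3.86 in knockout low-fat and 4.17, 4.10 and 4.09 in knockout high-fat livers, without overlap. With no filter on dim genes its limma adjusted p was 0.246, the smallest among the 23 dim Trim genes.

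The list of interferon-inducible Trim genes named 15 genes, of which 10 had a probe set and 5 were tested (Trim12c, Trim14, Trim21, Trim25 and Trim30a). In knockout livers 4 of these 5 had a diet difference above 0, with a median of 0.42, and 1 passed (3.03% of all genes). The unadjusted p in knockout livers was under 0.05 for 3 of these 5 (18.3% of all genes). The mean level of the 5 was 6.83, 6.64 and 7.10 on the knockout low-fat arrays and 7.34, 7.25 and 7.14 on the knockout high-fat arrays. The wild-type arrays lay between 6.70 and 7.14. Among all tested genes 48.4% had a diet difference above 0 in knockout livers. In wild-type livers 4 of the 5 were above 0 too, with a median of 0.07, where 49.7% of all genes were above 0. Of these 5, 0 passed in wild-type livers, against 0.175% of all genes. The unadjusted p in wild-type livers was under 0.05 for none of these 5 (8.82% of all genes). Between the genotypes on the high-fat diet, all 5 had differences above 0 (median 0.24), where 51.5% of all genes did, from 0.14 in Trim14 to 0.34 in Trim12c, and 0 passed (limma, 0.00975% of all genes), with an unadjusted p under 0.05 for 1 of them (4.46%). On the low-fat diet 2 of the 5 were above 0 (51.5% of all genes), with a median of -0.10. Without the pair of arrays low in macrophage markers, the median diet difference of the 5 in knockout livers was 0.26 and 0 passed, and their median genotype difference was 0.26 on the high-fat and 0.10 on the low-fat diet.

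Of 25 listed interferon-stimulated genes outside the family, such as those of antiviral and GTPase proteins, 14 were tested. In knockout livers 6 of the 14 rose with the high-fat diet and none fell past the threshold, with a median diet difference of 0.84, where 3.03% of all genes passed. Ifit3, which binds viral RNA with its partners, rose by 1.37 (SE 0.167, limma adjusted p = 0.00225). The immunity-related GTPase Igtp rose by 1.07 (SE 0.187, limma adjusted p = 0.0122) and the guanylate-binding protein Gbp7 by 0.97 (SE 0.188, limma adjusted p = 0.0189). In wild-type livers the median was -0.04 and 0 of the 14 passed (0.175% of all genes). The mean level of the 14 genes was 5.94 to 6.37 on the 9 arrays of the other groups, and 7.18, 6.93 and 6.60 on the knockout high-fat arrays. Without the pair of arrays low in macrophage markers, 5 of the 14 passed in knockout livers and the median was 0.90. Between the genotypes on the high-fat diet 12 of the 14 were above 0 (51.5% of all genes), with a median of 0.63. Of these 14, 0 passed (limma, 0.00975% of all genes), although 11 had an unadjusted p under 0.05 (4.46%). Without those arrays Cxcl9, a chemokine induced by interferon-gamma, and the guanylate-binding protein Gbp2 passed in that comparison. The test of the difference between the diet effects called 0 of the 14 (0% of all genes), with 10 at an unadjusted p under 0.05 (5.7%). The list's response was thus not shown to differ between the genotypes gene by gene.

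**Figure D2:**
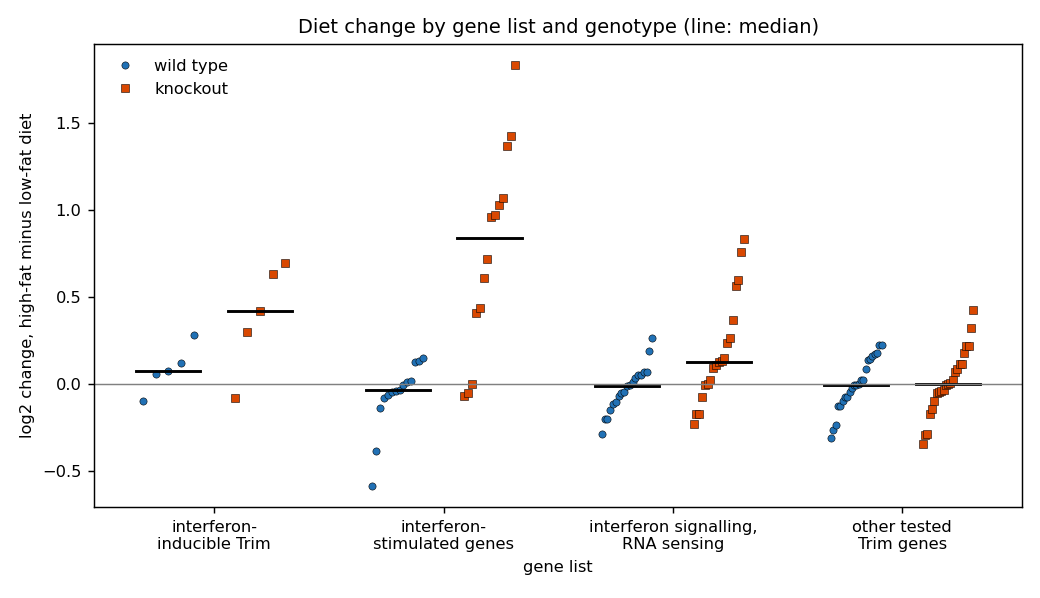
Log2 change from the low-fat to the high-fat diet (vertical axis) of each tested gene, for wild-type (circles) and knockout livers (squares), in 3 interferon lists and in the other tested Trim genes (horizontal axis); horizontal bars are list medians. The knockout median is 0.84 for interferon-stimulated genes and 0.42 for the interferon-inducible Trim genes.

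Of 25 listed genes that carry the interferon signal or sense viral RNA, 19 were tested. In knockout livers 14 of the 19 had a diet difference above 0 (median 0.13), where 48.4% of all genes did. The interferon-gamma receptor chain Ifngr2 was the 1 of the 19 that passed, where 3.03% of all genes did, and rose by 0.76 (SE 0.144, limma adjusted p = 0.0174). Without the pair of arrays low in macrophage markers, 0 of the 19 passed. Immune cell markers were read beside these lists. Of 13 macrophage markers with a probe set, 12 were tested, and 9 of the 12 had a diet difference above 0 in knockout livers (median 0.44) and 12 of 12 in wild-type livers (median 0.40), with 0 passing in either. Among all genes 48.4% were above 0 in knockout and 49.7% in wild-type livers, and 3.03% and 0.175% passed. On the high-fat diet 3 of the 12 were above 0 in knockout against wild-type livers (median -0.24), where 51.5% of all genes were. The mean level of the 13 markers was 6.83, 6.43 and 5.46 on the knockout high-fat arrays. On the wild-type high-fat arrays it was 6.32, 6.51 and 6.35, so only knockout high-fat array 3 lay below the wild-type range. Of 12 markers of liver sinusoidal endothelium with a probe set, 11 were tested. In knockout livers 1 of the 11 had a diet difference above 0 (median -0.49), and on the high-fat diet 0 of the 11 were above 0 in knockout against wild-type livers (median -0.49). None of the 11 passed in either comparison (limma, 3.03% and 0.00975% of all genes). For diet in knockout livers 3 had an unadjusted p under 0.05 (18.3% of all genes), 1 higher and 2 lower. Between the genotypes on the high-fat diet 3 did, all lower (4.46% of all genes). Markers of T, NK and B lymphocytes had a mean level of 3.87 to 3.95 on the knockout high-fat arrays and of 3.72 to 3.92 on the others, with 8 of 11 among the dim genes. The part of these cells in the Trim values was not tested.

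The other tested Trim genes had smaller diet differences than Trim12c in knockout livers, Trim14 aside. Beyond Trim12c, Trim14 and Trim21, Trim27 had an unadjusted p under 0.05 in knockout livers, so 4 of 28 did, against 18.3% of all genes. Trim27 is a ligase also known as RET finger protein. It had 6.87, 6.97 and 6.94 in knockout low-fat and 6.76, 6.51 and 6.62 in knockout high-fat livers, without overlap. Its diet difference was -0.30 in knockout livers (SE 0.110, limma adjusted p = 0.166) and -0.13 in wild-type livers. A pair of dim probe sets of Trim27 had diet differences of -0.05 and 0.17 in knockout livers, and the mean of its probe sets had -0.03 with the genotypes averaged (limma adjusted p = 0.846). The diets did not overlap in knockout livers for 6 of the 28 tested Trim genes (21.7% of all genes). Trim12c, Trim14, Trim16, Trim21 and Trim36 were higher with high-fat feeding (10.8% of all genes) and Trim27 was lower (10.9%).

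In wild-type livers 0 of 28 passed with diet, and 2 had an unadjusted p under 0.05 (8.82% of all genes), Trim28 and Trim16. The diets did not overlap in wild-type livers for 3 of 28, Trim28, Trim32 and Trim16 (15.7% of all genes), and with the genotypes pooled for 0 of 28 (3.27%). With the genotypes averaged 0 of 28 passed, against 4.56% of all genes, and 4 had an unadjusted p under 0.05 (19.7% of all genes). They were Trim12c, Trim14 and Trim21 with higher and Trim27 with lower values on the high-fat diet. The difference between the diet effects passed for 0 of 28 Trim genes and for 0% of all genes. An unadjusted p under 0.05 in that comparison was found for Trim12c and Trim16 (5.7% of all genes). The family's median diet difference was 0.01 in each genotype. Its median size without regard to sign was 0.130 in knockout livers and 0.110 in wild-type livers, against 0.130 and 0.099 for all genes.

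**Figure D3:**
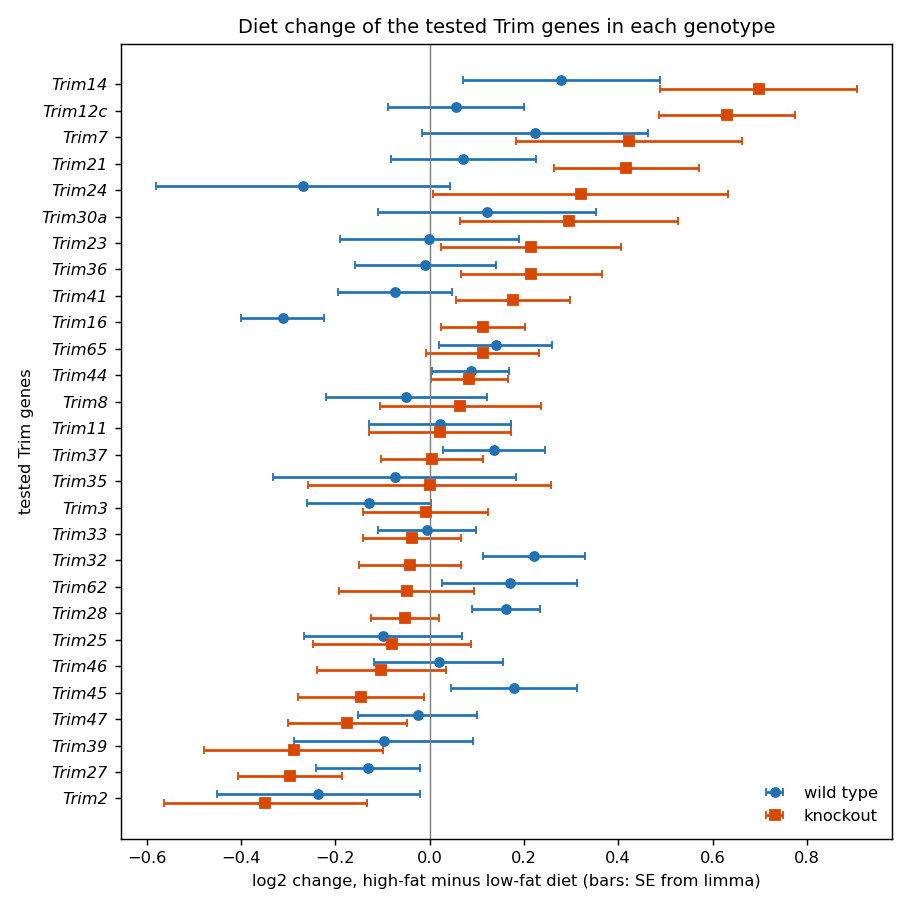
Log2 change from the low-fat to the high-fat diet (horizontal axis) of the 28 tested Trim genes (vertical axis), in wild-type (circles) and knockout livers (squares), ordered by the knockout value; bars are limma's SE. Trim14 (0.70) and Trim12c (0.63) head the knockout values, and the value of Trim16 in wild-type livers (-0.31) is opposite in sign to that in knockout livers (0.11).

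Loss of Pml was accompanied by no Trim difference that passed. On the low-fat diet 0 of 28 Trim genes passed (limma, 0.00975% of all genes, which is Pml alone), and 2 had an unadjusted p under 0.05 (8.72% of all genes), Trim16 and Trim41. On the high-fat diet 0 of 28 passed (0.00975% of all genes) and 1, Trim12c, had an unadjusted p under 0.05 (4.46%). With the diets averaged 0 of 28 passed (0.0195%) and 1, Trim41, had an unadjusted p under 0.05 (7.26%). Knockout and wild-type arrays did not overlap for 2 of 28 Trim genes on the low-fat diet (12% of all genes) and for 7 of 28 on the high-fat diet (11.8%). The 7 were Trim12c, Trim16, Trim21, Trim3 and Trim36 with higher (6.62% of all genes) and Trim32 and Trim41 with lower values in knockout livers (5.19%). The median size of the genotype difference on the high-fat diet, without regard to sign, was 0.136 for the Trim genes and 0.084 for all genes, and on the low-fat diet 0.117 and 0.102.

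Trim41 was the Trim gene whose 6 knockout arrays all lay below its 6 wild-type arrays. Such a separation, in either direction, was found for 1 of 28 Trim genes and for 0.263% of all genes. Trim41 is a PRY-SPRY ligase found in nucleus and cytoplasm that has been tied to protein kinase C. Its values were 7.82, 7.86 and 8.13 in wild-type low-fat and 7.86, 7.88 and 7.84 in wild-type high-fat livers. In knockout livers they were 7.66, 7.30 and 7.65 with low-fat and 7.81, 7.56 and 7.78 with high-fat feeding. The gap between the lowest wild-type and the highest knockout array was thus narrow, and the lowest value, 7.30, was on knockout low-fat array 2. The genotype difference of Trim41 was -0.40 on the low-fat diet (SE 0.121, limma adjusted p = 0.431), -0.15 on the high-fat diet (SE 0.121) and -0.27 over both (SE 0.0854, limma adjusted p = 0.596). None of these passed. A second probe set, with a mean of 6.07, had differences of -0.45 and -0.18 on the low-fat and the high-fat diet, but its arrays did overlap between the genotypes.

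Trim7 lies next to Trim41 on chromosome 11 in the RefSeq annotation, with no protein-coding gene between them. On its brightest probe set Trim7 had values in the same direction. Its protein binds glycogenin, the primer of glycogen. It had 5.46, 5.47 and 6.35 in wild-type low-fat and 5.79, 6.18 and 5.97 in wild-type high-fat livers. Knockout values were 5.68, 5.25 and 5.03 with low-fat and 6.03, 5.57 and 5.63 with high-fat feeding, and overlapped the wild-type values on both diets. The genotype difference of Trim7 was -0.44 on the low-fat diet (SE 0.240, limma adjusted p = 0.640) and -0.24 on the high-fat diet (SE 0.240, limma adjusted p = 0.996). Without wild-type low-fat array 3, its low-fat difference was -0.14. A pair of dim probe sets of Trim7, with means of 3.72 and 3.14, had low-fat genotype differences of -0.48 and -0.05. Their high-fat genotype differences were 0.02 and 0.06, so neither was lower in knockout livers on that diet.

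**Figure D4:**
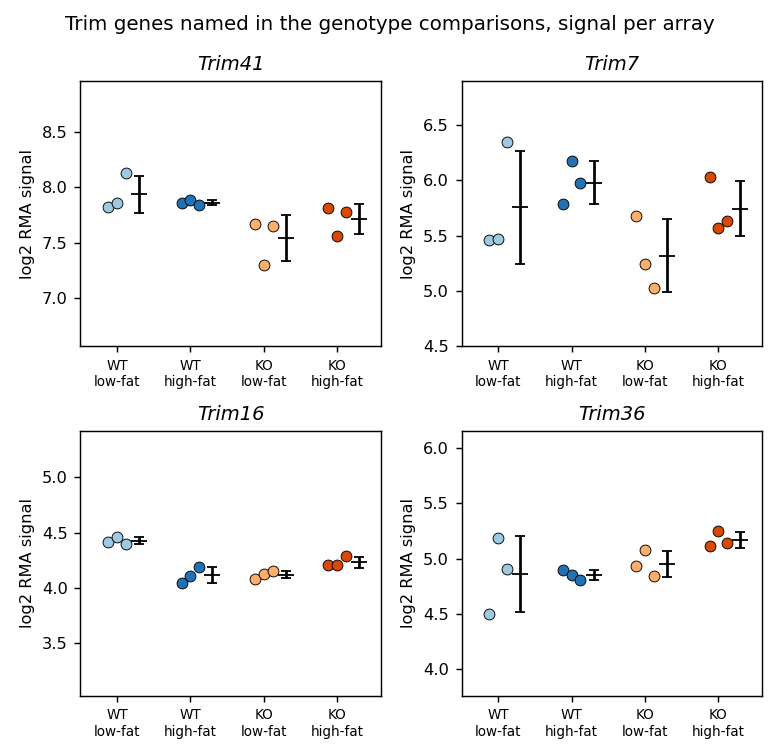
Log2 RMA signal (vertical axis) of Trim41, Trim7, Trim16 and Trim36 on each array, by genotype and diet (horizontal axis); points are the 3 arrays of a group, and the bar beside them is the mean ± SD. The 6 knockout points of Trim41 (7.30 to 7.81) lie below its 6 wild-type points (7.82 to 8.13), and the 3 wild-type low-fat points of Trim16 (4.40 to 4.46) lie above its other 9.

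Trim16 lacks a RING finger like Trim14, and takes part in the autophagy of damaged membranes. It had 4.42, 4.46 and 4.40 in wild-type low-fat livers, the highest 3 of its values, and 4.04, 4.11 and 4.19 in wild-type high-fat livers. In knockout livers it had 4.08, 4.12 and 4.15 with low-fat and 4.20, 4.20 and 4.29 with high-fat feeding. The high-fat values were thus lower in wild-type and higher in knockout livers, in both without overlap. The diet difference was -0.31 in wild-type (SE 0.0884, limma adjusted p = 0.251) and 0.11 in knockout livers (SE 0.0884, limma adjusted p = 0.554). On the low-fat diet the knockout livers differed from wild type by -0.31 (SE 0.0884, limma adjusted p = 0.407). The signal of Trim16 was close to the lowest mean tested, 4.08, and its second probe set, at a mean of 2.74, had a diet difference of -0.02 in wild-type livers.

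Trim36, a microtubule-binding member, had 4.50, 5.18 and 4.90 in wild-type low-fat and 4.90, 4.85 and 4.81 in wild-type high-fat livers. Knockout livers had 4.93, 5.08 and 4.84 with low-fat and 5.11, 5.25 and 5.14 with high-fat feeding. The knockout high-fat values lay above the wild-type high-fat values, with a difference of 0.31 (SE 0.149, limma adjusted p = 0.996). A second, dim probe set of Trim36 had 0.05 in that comparison, and the mean of both had 0.18. Trim3, an NHL protein known from neurons, had 5.84, 5.70 and 5.80 in knockout against 5.64, 5.52 and 5.54 in wild-type livers on the high-fat diet (difference 0.21, SE 0.132, limma adjusted p = 0.996). Trim32, another NHL member and a ligase for muscle proteins, had 5.04, 4.75 and 5.10 in wild-type low-fat and 5.13, 5.25 and 5.18 in wild-type high-fat livers. Its diet difference in wild-type livers was 0.22 (SE 0.108, limma adjusted p = 0.601), and -0.04 in knockout livers. Without wild-type low-fat array 2, the value of Trim32 in wild-type livers was 0.11.

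The members of the family with a PHD finger and a bromodomain are Trim24, Trim28, Trim33 and Trim66, of which Trim66 was dim. Trim28 recruits silencing enzymes to DNA bound by zinc finger proteins. It had 8.93, 9.03 and 9.08 in wild-type low-fat and 9.14, 9.15 and 9.25 in wild-type high-fat livers, without overlap, and 9.15, 9.06 and 9.16, then 9.06, 9.02 and 9.15 in knockout livers on the 2 diets. The diet difference of Trim28 was 0.16 in wild-type livers (SE 0.0720, limma adjusted p = 0.548) and -0.05 in knockout livers. Its SD was between 0.0539 and 0.0756 in the 4 groups, and a second bright probe set, with a mean of 8.75, had a wild-type diet difference of 0.06. On that probe set the wild-type diets overlapped, at 8.59, 8.72 and 8.78 with low-fat and 8.74, 8.74 and 8.78 with high-fat feeding. Of 11 listed partners in the silencing complex of Trim28, 10 were tested and 0 passed (limma) in any of the 7 comparisons, with at most 1 at an unadjusted p under 0.05 in each. The shares over all genes were 0% to 4.56% passing and 4.46% to 19.7% at an unadjusted p under 0.05. The heterochromatin protein gene Cbx5 had a diet difference of -0.29 in knockout livers (SE 0.133, limma adjusted p = 0.270).

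Trim24 had the values 7.60, 7.04 and 8.04 in wild-type low-fat and 7.44, 6.91 and 7.52 in wild-type high-fat livers. Knockout livers had 7.83, 6.68 and 6.80 with low-fat and 7.79, 7.23 and 7.27 with high-fat feeding. The groups overlapped, and Trim24 had the widest range of the tested Trim genes over the 12 arrays, 1.36. Its genotype difference was -0.46 on the low-fat diet (SE 0.313, limma adjusted p = 0.731) and 0.13 on the high-fat diet. The low-fat value of Trim24 was -0.82 without knockout low-fat array 1 and -0.21 without wild-type low-fat array 3. Trim33, a regulator of SMAD4 in TGF-beta signalling, lay between 7.03 and 7.33 on all arrays, with differences from -0.09 to -0.01 in the 4 comparisons of single groups. Of 14 listed receptor and SMAD partners of Trim24 and Trim33, 12 were tested. In knockout livers Smad3, a carrier of the TGF-beta signal, fell by 0.52 on the high-fat diet (SE 0.112, limma adjusted p = 0.0292), and no other of the 12 passed there (3.03% of all genes). Its diet difference in wild-type livers was -0.39 (SE 0.112, limma adjusted p = 0.254), also without overlap (15.7% of all genes). With the genotypes averaged Smad3 fell by 0.46 (limma adjusted p = 0.00738). The difference between the diet effects passed for 0 of the 12 (limma, 0% of all genes). The change of Smad3 was thus not shown to differ between the genotypes. Smad4 had a diet difference of -0.35 in knockout livers (SE 0.0883, limma adjusted p = 0.0507).

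By class, the PRY-SPRY members were the largest class, with 23 of 51 measured and 13 of 28 tested. Their median diet difference was 0.02 in each genotype, and Trim12c was the 1 that passed. The 3 tested NHL members had diet differences from -0.35 to -0.01 in knockout livers. Trim2, a ligase for neurofilament light chain, was the lowest of these, at 7.24, 6.97 and 7.92 with low-fat and 7.33, 6.81 and 6.94 with high-fat feeding, so the diets overlapped and knockout low-fat array 3 stood apart. Without that array the difference of Trim2 was -0.08. Trim2 falls outside the rule for naming genes and was chosen after its values were seen. Classes with 1 tested member had diet differences in knockout livers of 0.22 for the ARF-domain member Trim23, 0.00 for the MATH-domain member Trim37, -0.15 for the filamin-domain member Trim45, 0.07 for Trim8, which has no C-terminal domain, and 0.08 for Trim44, which lacks both RING and SPRY. Both transmembrane members, Trim13 and Trim59, were dim. Of 10 listed ubiquitin enzymes that work with Trim proteins, 9 were tested and 0 passed (limma) in the 7 comparisons, with at most 2 at an unadjusted p under 0.05 in each. Over all genes 0% to 4.56% passed in these comparisons, and 4.46% to 19.7% had an unadjusted p under 0.05. Among 5 tested relatives under other symbols, Pml was the 1 that passed, in the comparisons of genotypes.

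The 23 dim Trim genes had mean signals from 2.50 in Trim5 to 4.07 in Trim29, just under the lowest tested Trim genes, Trim30a at 4.13 and Trim45 at 4.14. Their ranges over the 12 arrays were 0.218 to 0.769, against 0.296 to 1.36 for the 28 tested members. The muscle RING finger members Trim54 and Trim63 were among them, at means of 3.21 and 2.63. With no filter, 1 dim member, Trim34a, had an unadjusted p under 0.05 for diet in knockout livers and on the high-fat diet between genotypes. In wild-type livers 2 did with diet, on the low-fat diet 2 did between genotypes, and 2 did for the difference between the diet effects. None had an adjusted p (limma) under 0.246 in any comparison. The shares of all genes given above were taken with the filter and do not apply to these counts. Without the filter no such share was taken, so the counts cannot be set against all genes. The signal of these members does not show whether the gene was expressed.

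Of the 51 Trim genes, 20 had more than 1 probe set. For the 6 with 2 bright probe sets (Trim21, Trim23, Trim28, Trim37, Trim41 and Trim62), both probe sets differed in the same direction in 5 of 6 genes for diet in knockout livers, 5 for diet in wild-type livers, 5 between low-fat groups and 4 between high-fat groups of the genotypes.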

How the data were processed

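The authors deposited log2 values for 45141 probe sets of 12 Affymetrix arrays, computed with RMA, as the submitters' processing notes say without a version. RMA brings arrays to a shared distribution and compresses differences of dim probe sets. Array medians lay between 3.94 and 4.00, and no scaling was added. Probe sets with several genes (551), none (15588) or controls (104) were left out, and the brightest probe set stood for a gene; 5 probe sets naming a Trim gene with another gene were not used. The 6839 dimmest of 17097 genes were not tested.

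Group means of all 12 arrays were fitted with limma 3.58.1 in R 4.3.3 (variance trend, 8 residual degrees of freedom) over 7 comparisons, with Benjamini-Hochberg adjustment within each. The fit was tested on simulated data. The number of arrays limits the precision, and values after ± are SD. Exact permutation of 3 against 3 arrays cannot reach p of 0.05, so single genes were not permuted. Promoters are from RefSeq (GRCm38.p6).

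Members, lists and alternatives were chosen with earlier results of these data known. Named were Pml, Trim genes past the threshold, the 3 with the smallest p in a comparison, those with 6 arrays apart from 6, 10 always considered (Trim26 had no probe set of its own), and up to 3 examples per list.

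Alternatives were another scaling (quantile or median centring), other filters, the mean of probe sets, other variance settings, groups alone, array weights, the replicate block, a threshold of 0.10, and arrays left out. Counts of the interferon lists without a pair of arrays were added after seeing the data, and no share over all genes was taken for them.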

Additional observations from a re-analysis of the deposited data

Results flagged for a closer look

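Trim16 was the 1 of 28 tested Trim genes whose diet difference ran in opposite directions in the genotypes without overlap of the arrays in either. The wild-type high-fat arrays lay below the low-fat arrays and the knockout high-fat arrays above them. The same pattern was found for 41 of 10258 tested genes (0.4%). The difference between the diet effects was 0.42 (SE 0.125, unadjusted p = 0.00506) and did not pass across all genes (limma adjusted p = 0.802). Over the leave-one-out fits it lay between 0.39 and 0.46.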

How the results depend on the processing

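With 24 alternatives for each of 7 comparisons, 149 of 168 counts of Trim genes past the threshold were within 1.5 times the reported count, and no named gene changed sign in 492 values. In 5 comparisons the count stayed at 0 throughout. For diet in knockout livers, where Trim12c passed, the count was 0 with the probe sets of a gene averaged, 0 with the groups of the comparison alone, 0 with the replicate block (smallest adjusted p = 0.0564), and 0 without knockout low-fat array 2 and knockout high-fat array 3. It was 2 with array weights and 2 at an adjusted p of 0.10, Trim14 being the second. Leaving out 1 array at a time gave 0 to 1. For diet with the genotypes averaged, where none passed, the count was 1 with quantile normalization, 2 with array weights and 2 at an adjusted p of 0.10, and leaving out 1 array at a time gave 0 to 2, with 1 without wild-type low-fat array 2 and 2 without knockout low-fat array 3. Trim12c and Trim14 were the genes concerned. The cause was not tested. The replicate block changed no other count. Replicate numbers were not taken as pairs, since 7 of 18 same-numbered pairs had a correlation of deviations above 0.1 (r from -0.17 to 0.38). Between knockout low-fat and knockout high-fat arrays, where Trim12c passed, r was 0.38 for replicate 1, 0.31 for replicate 2 and -0.04 for replicate 3. Trim16 was not tested with 60% of genes left out or with the mean of probe sets. Another scaling moved the median of all genes by at most 0.0227. With 3 arrays a group, small differences are not detectable, and for dim members the signal over background is the limit.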
